A study of Mus musculus with 4 samples.

Results

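The SoxE genes Sox8, Sox9 and Sox10 and the SoxD genes Sox5, Sox6 and Sox13 encode transcription factors with an HMG box, and they were followed in single cells of the mouse embryonic nose. The 6 genes were taken by symbol from the 32285 features of the count matrices, and all 6 were present. They were read in 13739 cells in which 500 or more genes were detected and mitochondrial UMIs were no more than 10%. A UMI (unique molecular identifier) marks 1 captured RNA molecule, and levels are given as UMIs per 1000000 UMIs of a class of cells in 1 library (CPM).

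Whole noses at embryonic day 14.5 were dissociated, frozen and profiled with 10x Genomics droplet sequencing of transcript 3′ ends, and the series asks how loss of Yap and Taz in the neural crest affects olfactory glia and neurons. There were 2 control and 2 mutant libraries. The mutants are labelled as carrying the transgene Tg(Sox10-cre)1Wdr with the alleles Yapflox and Tazflox on C57Bl/6J. The series design gives these embryos Sox10cre, 1 floxed and 1 wild-type Yap allele and 2 floxed Taz alleles. The sample labels describe the controls as C57Bl/6J and WT, whereas the series design has them as yap flox/flox;taz flox/flox without the Cre, and the sources do not settle which is right. The Cre transgene is driven by Sox10 regulatory sequence, so recombination is aimed at neural crest derivatives, and at other cells only where that sequence is active. The labels speak of 2 noses for each genotype without tying a nose to a library, so p-values measure only the spread between these libraries.

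SoxE factors bind DNA through the HMG box and activate transcription. Sox9 is required for cartilage formation, Sox10 is required for neural crest glia and melanocytes, and Sox8 overlaps in expression with both. SoxD factors lack a transactivation domain of their own. Sox5 and Sox6 act beside Sox9 on cartilage matrix genes, and can oppose SoxE factors in the glial and melanocyte lineages. A part of the coding sequence near the start of the HMG box is shown because the box is what places the 6 genes in their families. Each line gives 60 bases of the coding strand, 5′ to 3′, from GENCODE M21 transcripts on GRCm38, with capitals where a base differs from Sox9 at the same position.
Sox9: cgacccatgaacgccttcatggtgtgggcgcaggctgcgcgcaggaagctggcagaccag
Sox10: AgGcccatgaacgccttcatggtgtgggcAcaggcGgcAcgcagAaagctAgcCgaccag
Sox8: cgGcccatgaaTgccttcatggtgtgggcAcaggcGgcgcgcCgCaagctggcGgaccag
Sox5: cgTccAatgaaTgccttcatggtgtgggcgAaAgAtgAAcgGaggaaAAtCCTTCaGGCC
Sox6: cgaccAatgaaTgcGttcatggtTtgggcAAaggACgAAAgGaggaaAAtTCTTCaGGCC
Sox13: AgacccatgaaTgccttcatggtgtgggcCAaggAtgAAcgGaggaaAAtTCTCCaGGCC
The stretches lie in coding exons at chr11:112782903-112782962 (Sox9, plus strand), chr15:79163342-79163401 (Sox10, minus), chr17:25570163-25570222 (Sox8, minus), chr6:143841214-143841273 (Sox5, minus), chr7:115489703-115489762 (Sox6, minus) and chr1:133385506-133385565 (Sox13, minus). Sox8 and Sox10 differed from Sox9 at 7 and 8 of the 60 bases, and the SoxD genes at 19 to 23. Over 237 bases from the same start, identity was 80.6% to 84.4% among SoxE genes and 81.0% to 84.8% among SoxD genes. Between the families it was 50.2% to 58.6%. The length was fixed and not taken from annotated ends of the box.

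Cells were assigned to classes by marker lists of 8 genes, none of them a SoxE or SoxD gene. A cell entered a class with at least 3 of its 8 markers and those of no other class, except that mesenchymal markers were allowed beside those of another class. This gave 121 glial, 315 cartilage, 402 bone, 1280 epithelial and 9352 mesenchymal cells. Control 1 and control 2 had 41 and 27 glial cells, and mutant 1 and mutant 2 had 33 and 20. In the same order, the libraries kept 4075, 2474, 2995 and 4195 cells with 35331450, 19767873, 29121739 and 26874057 UMIs, and pairs of libraries shared 3 to 5 cell barcodes. All 8 glial markers were detected in the glial class. Of the 8 cartilage markers 6 were also detected there, summing to 36.8 to 263 CPM, with Matn1 and Comp at 0, and all 8 erythroid markers were at 0. Class levels are compared for 1 gene at a time, since 3′ counts of different genes are not on a common scale.

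**Figure D1:**
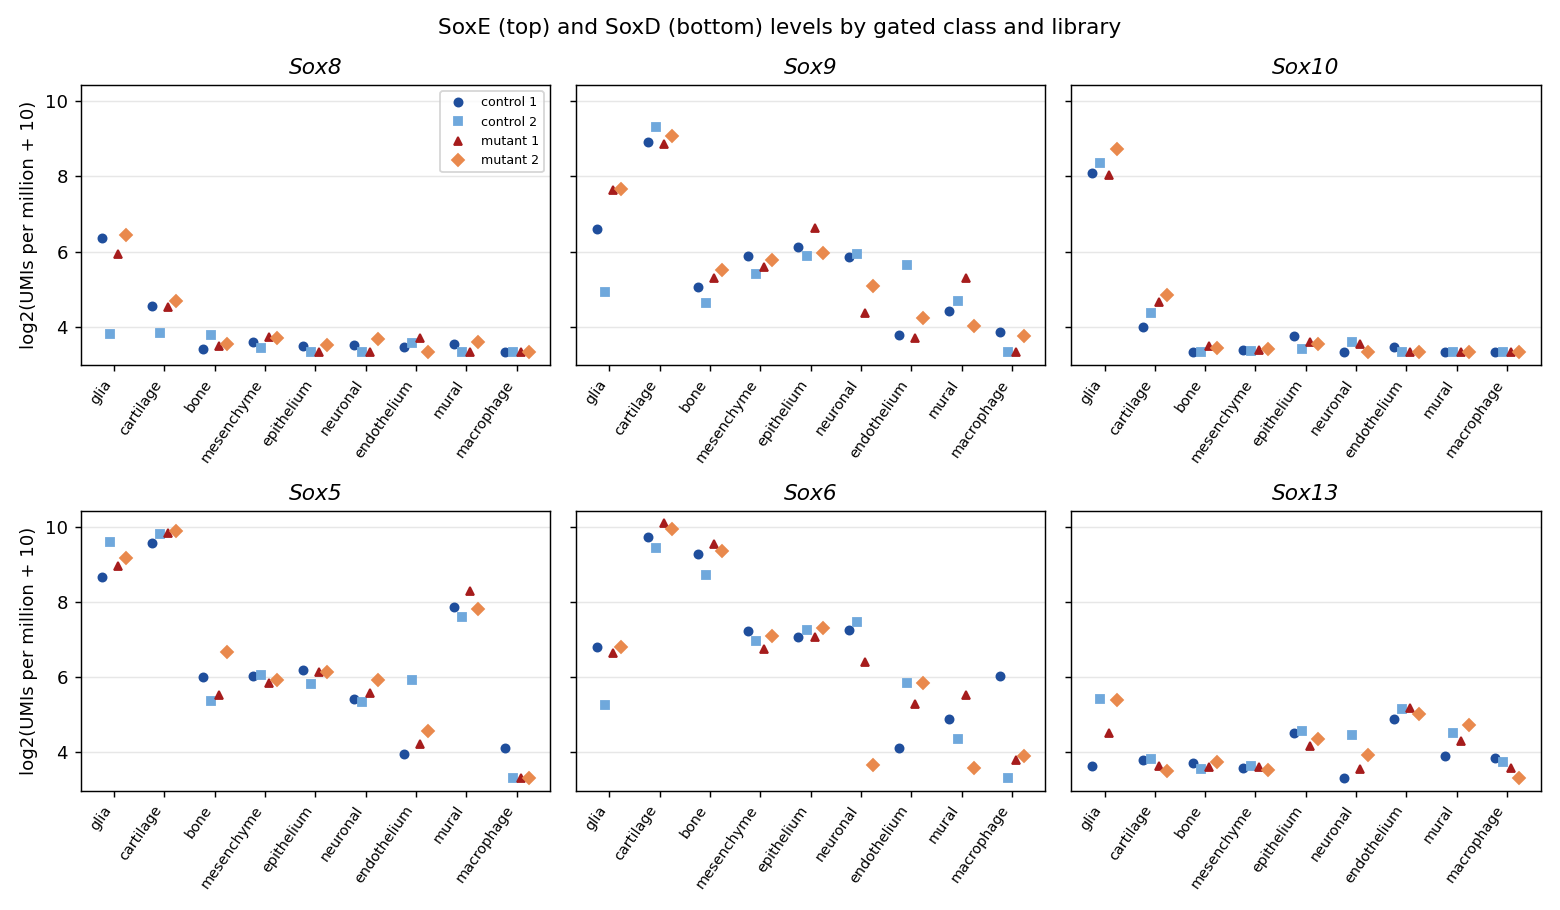
Level of each SoxE gene (top) and SoxD gene (bottom) by gated class, as log2 of CPM plus 10, with 1 symbol per library. Sox10 stood out in glia, Sox9 in cartilage, Sox5 in cartilage, glia and mural cells, and Sox6 in cartilage and bone; the muscle and melanocyte classes, with fewer than 20 cells in at least 1 library, are not drawn.

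Against mesenchyme, the tests of edgeR (quasi-likelihood, counts summed by library and class, library as a block, Benjamini-Hochberg over 11062 genes) called 5 of the 6 genes higher and none lower in cartilage, where 20.2% of all genes were called, 10.4% higher and 9.75% lower. In glia 5 of 6 were called higher and none lower, beside 28.2% of all genes called, 13.4% higher and 14.8% lower. In bone 1 of 6 was called higher and none lower, beside 38% of all genes called, 19.2% higher and 18.9% lower. In epithelium 3 of 6 were called higher and 1 lower, beside 63.1% of all genes called, 31.5% higher and 31.6% lower. All 6 genes passed the filter on low counts in this fit, some of them only through the classes where they were high. The counts, and the p-values against mesenchyme given below, are therefore a description. The classes were gated on other genes of the same cells.

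Sox10, the neural crest glial factor, was concentrated in glia. Its level in glia was 265 and 319 CPM for control 1 and control 2 and 253 and 412 CPM for mutant 1 and mutant 2, from 64 to 107 UMIs. Every library was far above its own mesenchyme, where the level was 0.154 to 0.571 CPM, and the groups overlapped in glia. The log2 difference between glia and mesenchyme was 9.49 ± 0.28 (SE, n = 4 libraries; edgeR adjusted p = 1.2e-17). Glia held 54.2% to 73.7% of all Sox10 UMIs of a library. No Sox10 UMI was found in macrophage, mural or muscle cells of any library.

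Among single glial cells, each thinned to 3000 UMIs to make depth equal, 48.8%, 61.5%, 57.6% and 84.2% had a Sox10 UMI in control 1, control 2, mutant 1 and mutant 2. The exact 95% binomial intervals ran from 32.9% to 64.9% in control 1 and from 60.4% to 96.6% in mutant 2, which had 19 cells at that depth. Without thinning the shares were 85.2% to 90.9%. Macrophages, which should lack the gene, gave 0 of 60, 0 of 45, 0 of 39 and 0 of 74 cells, which allows shares of up to 5.00%, 6.67%, 7.69% and 4.05%, and their median depth of 7414 to 9871 UMIs was close to the 6812.5 to 10723 of glia. Intervals cover counting error only. The exact two-sided permutation test of 2 against 2 libraries cannot go below p = 0.33, so shares were not compared between genotypes.

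A lower Sox10 signal lay in cartilage. Control cartilage had 5.84 and 10.7 CPM and mutant cartilage 15.4 and 18.6 CPM, from 6, 5, 6 and 13 UMIs. The groups did not overlap, as for 33.8% of the genes tested in cartilage, and Sox10 itself was under the filter for that test. Against mesenchyme the log2 difference was 4.76 ± 0.50 (n = 4; edgeR adjusted p = 1.5e-07). Cartilage ranked next after glia among 9 classes, its range clear of glia above and of epithelium below. Of 315 cartilage cells, 27 carried Sox10, with at most 2 UMIs each. Of the 27, 9 had no glial marker, 10 had 1 and 8 had 2. In mesenchyme 26 of 9352 cells carried Sox10, 21 of them with no glial marker. More than 2 glial markers were not possible in either class, since the gate left such cells out. Glial markers were not counted for the cells of these classes without Sox10. The summed level of the glial markers in cartilage was 129 to 232 CPM against 14.6 to 22.6 in mesenchyme, and its part in the cartilage Sox10 counts was not tested.

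Melanocytes, the pigment cells of the neural crest, also carried Sox10. The controls gave 5 and 7 melanocytes and the mutants 0 and 1, so no genotype comparison was made. Sox10 was found in 11 of these 13 cells, with levels of 295 and 308 CPM in control melanocytes. Sox5 was at 246 and 454 CPM and Sox6 at 369 and 729 CPM in the same control sums, while Sox8 and Sox13 had no UMI in any of the 13 cells. Epithelium had a trace of Sox10 at 0.592 to 3.46 CPM, in 15 of 1280 cells, which edgeR called higher than mesenchyme (log2 difference 2.45 ± 0.43, adjusted p = 2.8e-05). Cells that passed more than 1 list held a further 6.0% to 26.4% of a library's Sox10 UMIs, in 33 cells of which 29 had at least 3 glial markers and 18 had at least 3 melanocyte markers.

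The mutants carry a transgene built on Sox10 regulatory sequence. How much of the locus it holds, and whether its transcripts are counted under Sox10, are not given in the sources used here. Genes next to Sox10 on chromosome 15 were read for this reason. Polr2f, an RNA polymerase subunit gene that lies just beside Sox10, was at 235 and 225 CPM in control glia and at 508 and 535 in mutant glia. Eif3l, a translation factor gene, was at 94.0 and 106 CPM in control glia and at 183 and 174 in mutant glia, and in mesenchyme at 88.3 and 86.0 against 177 and 189. Micall1 was at 12.4 and 12.3 CPM against 28.3 and 32.2 in glia. In all 6 sums compared by genotype (glia, cartilage, bone, epithelium, mesenchyme and all cells), both mutants were above both controls for each of the 3 genes. Among all genes tested, 33.8% to 40.8% had groups that did not overlap in 1 direction or the other in a given sum. The share of genes with both mutants higher in all 6 sums was not computed. Eif3l in mesenchyme passed the test (log2 change 1.03 ± 0.09, edgeR adjusted p = 0.033, n = 2 against 2), in a fit that called 0.0252% of 15891 genes. Pick1, on the other side of Sox10, overlapped between the groups in glia, and its log2 change in mesenchyme was 0.07 ± 0.13. Sox10 itself overlapped between the groups in glia.

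Sox8, the SoxE gene often expressed beside Sox10, had its highest mean level in glia, at low counts. Its glial level was 71.8 and 4.09 CPM for control 1 and control 2 and 51.5 and 77.3 CPM for mutant 1 and mutant 2, from 29, 1, 20 and 12 UMIs. Control 2 stood apart from the other libraries, and its glia were below its cartilage (4.29 CPM). Against mesenchyme, glia were higher by a log2 difference of 4.44 ± 0.40 and cartilage by 2.33 ± 0.46 (n = 4; edgeR adjusted p = 4.95e-09 and 0.00061), with cartilage at 4.29 to 15.7 CPM. Mesenchyme was at 0.848 to 3.30 CPM but, being most of the cells, held 37.0% to 62.9% of all Sox8 UMIs. Epithelium was called lower than mesenchyme (log2 difference -1.77 ± 0.51, edgeR adjusted p = 0.0042), at 0 to 1.34 CPM, and without mutant 1 that call was lost (log2 -1.12, adjusted p = 0.084). Muscle, with 10 to 28 cells a library, had 5.60 to 19.9 CPM.

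Sox9, the cartilage factor, was at 470.3 and 628 CPM in control cartilage and at 456 and 527 CPM in mutant cartilage. The groups overlapped, and every cartilage value lay above every value of the other 8 classes compared. The log2 difference from mesenchyme was 3.69 ± 0.21 (n = 4; edgeR adjusted p = 3.5e-12). Mesenchyme had 32.2 to 48.5 CPM, and through its cell number held 39.0% to 45.6% of Sox9 UMIs against 11.5% to 27.4% in cartilage. Bone, at 14.8 to 35.6 CPM, did not differ from mesenchyme past the threshold (log2 -0.50 ± 0.30, edgeR adjusted p = 0.21). It was called lower without the filter (-0.62, edgeR adjusted p = 0.0010), and the sign turned at a gate of 2 markers (0.045). Epithelium was at 49.1 to 89.2 CPM, a log2 difference of 0.63 ± 0.20 (edgeR adjusted p = 0.0090) that was lost without mutant 1 (0.38, adjusted p = 0.11) and with DESeq2 (0.62, adjusted p = 0.11). Glia were at 20.5 to 193 CPM and were called higher than mesenchyme (log2 1.54 ± 0.31, edgeR adjusted p = 0.00050).

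Sox5, a SoxD partner of Sox9 in cartilage, had its highest levels in cartilage and glia. In cartilage it was at 754, 898, 909.9 and 950.3 CPM in control 1, control 2, mutant 1 and mutant 2. In glia it was at 396, 761, 487 and 573 CPM in the same order, and the ranges of the classes overlapped at their edge. The log2 differences from mesenchyme were 4.06 ± 0.17 in cartilage and 3.38 ± 0.18 in glia (n = 4; edgeR adjusted p = 1.1e-14 and 7.7e-13). Mural cells, the contractile cells of vessel walls, came next at 186 to 304 CPM, clear of glia above and of epithelium below. Epithelium at 46.1 to 62.9, bone at 31.4 to 92.8 and mesenchyme at 47.5 to 56.3 CPM overlapped and did not differ past the threshold. The result for bone depended on the gate. Bone was called higher than mesenchyme at a gate of 2 markers (log2 0.73, edgeR adjusted p = 0.00025), and the sign turned at 4 (-0.093).

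Sox6, the other cartilage SoxD gene, was shared by cartilage and bone. Cartilage had 848, 688, 1087 and 977 CPM and bone 614, 416, 746 and 653 CPM in control 1, control 2, mutant 1 and mutant 2. The 2 classes overlapped in range, and within each library cartilage was above bone. Against mesenchyme, at 98.5 to 142 CPM, the log2 differences were 2.89 ± 0.14 in cartilage and 2.46 ± 0.14 in bone (n = 4; edgeR adjusted p = 3.3e-13 and 1.9e-12). Glia, at 28.7 to 103 CPM, did not pass (log2 -0.54 ± 0.23, edgeR adjusted p = 0.086), though they did without the filter (-0.73, edgeR adjusted p = 4.9e-05). They were also called lower at a gate of 4 markers (-0.64, edgeR adjusted p = 0.030), and the sign turned at a gate of 2 markers (0.38). Muscle had 89.4 to 195 CPM. Neuronal cells had 145 and 168 CPM of Sox6 in control libraries and 74.8 and 2.66 CPM in mutant libraries. These levels came from 97, 83, 43 and 1 UMIs. The groups did not overlap, as for 33.8% to 40.8% of genes in the sums tested for genotype. Neuronal cells were not among those sums, and their own share was not computed.

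Sox13, the third SoxD gene, was low in every class. Endothelium had the highest mean level, 23.6 ± 2.94 CPM (SD, n = 4), with 19.8 to 26.3 CPM in the libraries. Glia had 2.47, 32.7, 12.9 and 32.2 CPM, from 1, 8, 5 and 5 UMIs, so that control 1 was near the floor. Epithelium had 8.16 to 13.6 CPM. Against mesenchyme, at 1.58 to 2.39 CPM, the log2 differences were 2.97 ± 0.50 in glia and 2.44 ± 0.25 in epithelium (n = 4; edgeR adjusted p = 6.5e-05 and 9.2e-09). Cartilage, where Sox5 and Sox6 were high, had 1.43 to 4.29 CPM of Sox13 and did not pass (log2 0.57 ± 0.61, edgeR adjusted p = 0.58).

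Within epithelium the genes parted by lineage markers. Keratinocyte-type cells, with at least 2 of 6 markers such as Krt14 and Trp63, had 158 to 209.6 CPM of Sox6, whereas respiratory-type cells had 1.28 to 8.82 CPM and olfactory-type cells 0 to 33.6 CPM. The keratinocyte range was clear of both. Sox9 was at 52.0 to 98.2 CPM in keratinocyte-type and 32.5 to 103 CPM in respiratory-type cells, which overlapped, and at 5.57 to 25.7 CPM in olfactory-type cells. Sox13 ran from 2.90 to 14.0 CPM in keratinocyte-type and from 12.8 to 17.6 CPM in respiratory-type cells. The respiratory-type class of control 2 held 6 cells, and these splits were not tested.

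The cartilage trio was next read cell by cell. In cells thinned to 3000 UMIs, 57.5%, 60.8%, 50.0% and 53.0% of cartilage cells had a Sox9 UMI in control 1, control 2, mutant 1 and mutant 2. For Sox5 the shares were 66.0%, 86.3%, 73.8% and 62.7%, and for Sox6 67.0%, 72.5%, 66.7% and 72.3%. All 3 were found together in 32.1%, 43.1%, 40.5% and 32.5% of the cells, and at least 1 of them in 88.0% to 96.1%. Of the cells with Sox9, 55.7% to 81.0% also had Sox5 and Sox6. Macrophages had a Sox9 UMI in 0% to 1.67% of cells, Sox5 in 0% to 1.67% and Sox6 in 0% to 5.00%, at median depths of 7414 to 9871 UMIs against 7091 to 9520.5 in cartilage.

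**Figure D2:**
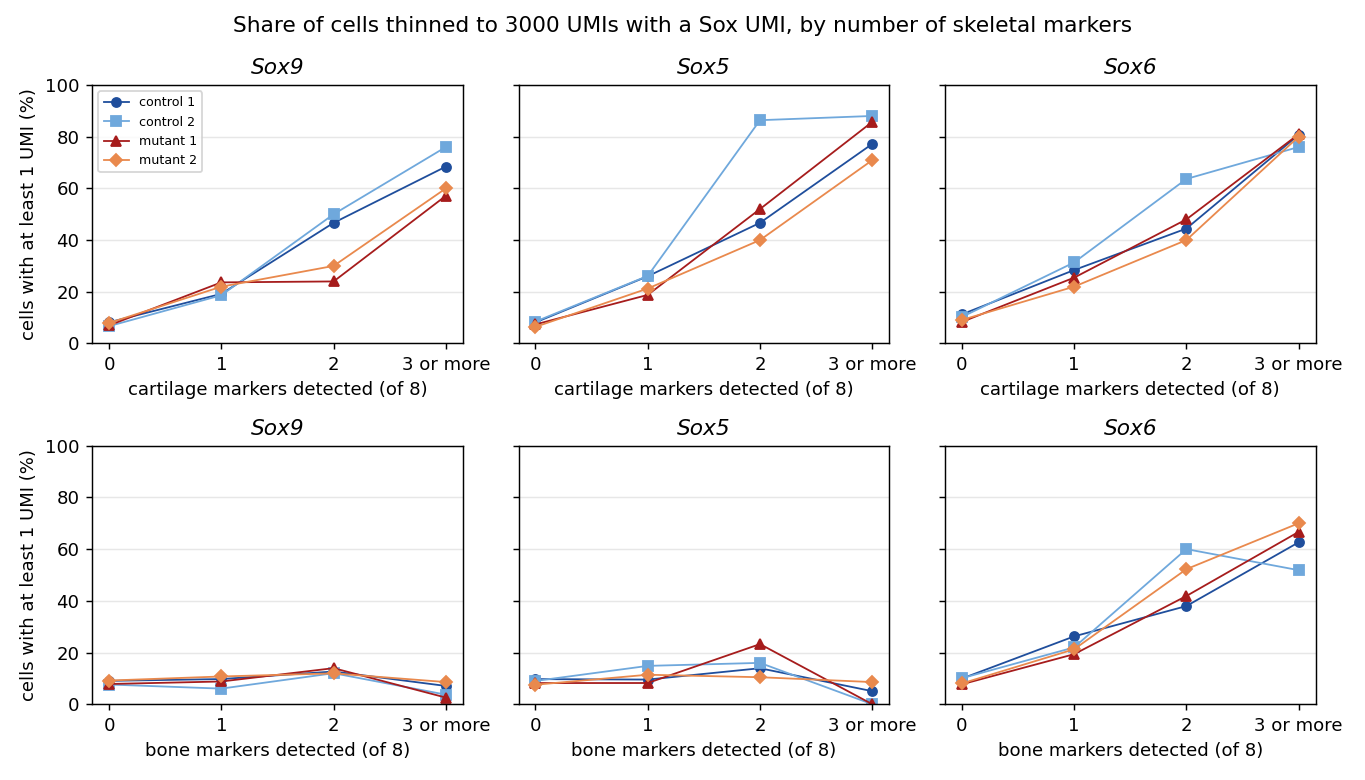
Share of cells thinned to 3000 UMIs with at least 1 UMI of Sox9, Sox5 or Sox6, by the number of cartilage markers (top) or bone markers (bottom) detected in the same thinned cell, with 1 line per library. The cells are those of the mesenchyme and cartilage classes (top) or of the mesenchyme and bone classes (bottom). The shares of Sox9, Sox5 and Sox6 were highest at 3 or more cartilage markers in every library, and at 3 or more bone markers Sox6 was in 51.9% to 70.0% of cells while Sox9 and Sox5 were in at most 8.6%.

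Mesenchyme and cartilage cells were next sorted by the number of cartilage markers detected, and mesenchyme and bone cells by that of bone markers. Cartilage cells, and cells that passed both the cartilage and bone lists, were thus left out of the bone axis. The part of this choice in the Sox9 and Sox5 shares on the bone axis was not tested. Along these axes the shares of the trio parted. With no cartilage marker, 6.7% to 8.2% of cells had Sox9, 6.4% to 8.5% Sox5 and 8.3% to 11.2% Sox6. With 3 or more cartilage markers these shares were 57.1% to 76.0%, 70.9% to 88.0% and 76.0% to 81.0%. Along the bone markers the share of Sox6 went from 7.7% to 10.1% with none to 51.9% to 70.0% with 3 or more. With 2 bone markers Sox9 was in 11.9% to 14.0% of cells and Sox5 in 10.4% to 23.3%, above the cells with none in each library. For Sox9 these were 10, 3, 6 and 8 cells of control 1, control 2, mutant 1 and mutant 2. At 3 or more it was in 7, 1, 1 and 6 cells, and these differences were not tested. In mutant 2 its share was 8.6% there against 9.2% with none. Sox9 was in 2.6% to 8.6% of the cells with 3 or more bone markers, below its share in cells with none in each library. Sox5 was in 5 of 99, 0 of 27, 0 of 39 and 6 of 70 such cells in control 1, control 2, mutant 1 and mutant 2, and a count of 0 there allows a share of up to 11.1% and 7.69%. The smallest group on these axes, 3 or more cartilage markers in mutant 1, had 21 cells.

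Glia were read in the same way for partners of Sox10. Sox10 and Sox5 were found together in 34.1%, 38.5%, 39.4% and 52.6% of thinned glial cells of control 1, control 2, mutant 1 and mutant 2. Sox10 and Sox9 were found together in 9.76%, 3.85%, 24.2% and 15.8%. Sox5 had a UMI in 58.5% to 69.7% of glial cells and Sox9 in 3.85% to 39.4%. These shares rest on 19 to 41 cells a library, and they rose to 74.1% to 84.8% for Sox10 with Sox5 when cells were not thinned.

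Known targets of the 2 families were followed as lists. Of 12 cartilage genes regulated by Sox9, Sox5 and Sox6, 10 could be tested and all 10 were called higher in cartilage than in mesenchyme, beside 10.4% of all genes. The 10 had passed a filter that includes cartilage, where such genes are high, so the count is a description. Their median log2 difference was 4.20, against -0.01 over all genes tested. Col2a1, the main cartilage collagen, was at 3267, 1507, 1830.1 and 4751 CPM in cartilage of control 1, control 2, mutant 1 and mutant 2 and at 22.7 to 31.8 CPM in mesenchyme (log2 6.60 ± 0.23, edgeR adjusted p = 2.8e-16). Col11a2 (7.84 ± 0.23), Col9a3 (6.60 ± 0.16) and Matn3 (6.50 ± 0.33) had the other large differences. In bone 5 of the 10 were called higher and 3 lower than mesenchyme, beside 19.2% and 18.9% of all genes. Col11a2 at 7.10 ± 0.23 and the growth factor receptor gene Fgfr3 at 3.19 ± 0.30 were among the higher, and Col9a2 (-1.53 ± 0.33), Col9a3 (-1.96 ± 0.43) and Col27a1 (-1.04 ± 0.18) were the lower ones.

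Of 8 glial genes regulated by Sox10, 5 could be tested and 4 were called higher in glia than in mesenchyme, beside 13.4% of all genes. Here too the filter could keep genes through glia alone, so the count is a description. The median log2 difference was 4.03, against -0.05 over all genes. Ednrb, the endothelin receptor of neural crest cells, was at 356 to 624 CPM in glia and 2.16 to 5.36 in mesenchyme (log2 6.92 ± 0.17, edgeR adjusted p = 7.8e-19). Pou3f1 (4.67 ± 0.40), Cnp (4.03 ± 0.18) and the myelin gene Mbp (2.57 ± 0.43) were the others. Egr2, the Schwann cell myelination factor, was at 0, 4.09, 0 and 6.44 CPM in glia and did not pass (log2 -0.61 ± 0.99, edgeR adjusted p = 0.70). In epithelium 3 of the 5 were called higher than mesenchyme and 1 lower, beside 31.5% and 31.6% of all genes. Pou3f1 (3.89 ± 0.25), Egr2 (3.16 ± 0.21) and Mbp (2.86 ± 0.20) were the higher ones there, and Ednrb (-2.26 ± 0.35) the lower. Of 13 other Sox genes 6 could be tested; Sox2 (log2 2.61 ± 0.49) and Sox4 (0.60 ± 0.16) were called higher in glia, and Sox11 (-0.85 ± 0.15) and Sox18 (-8.91 ± 2.00, near 0 in glia) lower.

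For the comparison of mutant with control libraries within a class, the filter on low counts kept 6 of the 6 genes in glia, 3 in cartilage, 3 in bone, 4 in epithelium and 5 in mesenchyme. None passed the threshold of edgeR in any class (n = 2 against 2). The genes called among all those tested were 0% of 5605 in glia, 0% of 7815 in cartilage, 0.011% of 9129 in bone, 0% of 13133 in epithelium and 0.0252% of 15891 in mesenchyme. At an unadjusted p under 0.05 there were 269, 350, 414, 672 and 1257 genes in the same order, with Sox9 among them in glia, Sox6 in cartilage, and Sox5 and Sox8 in mesenchyme. DESeq2 called 0, 0, 0, 6 and 52 genes, also without any of the 6.

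**Figure D3:**
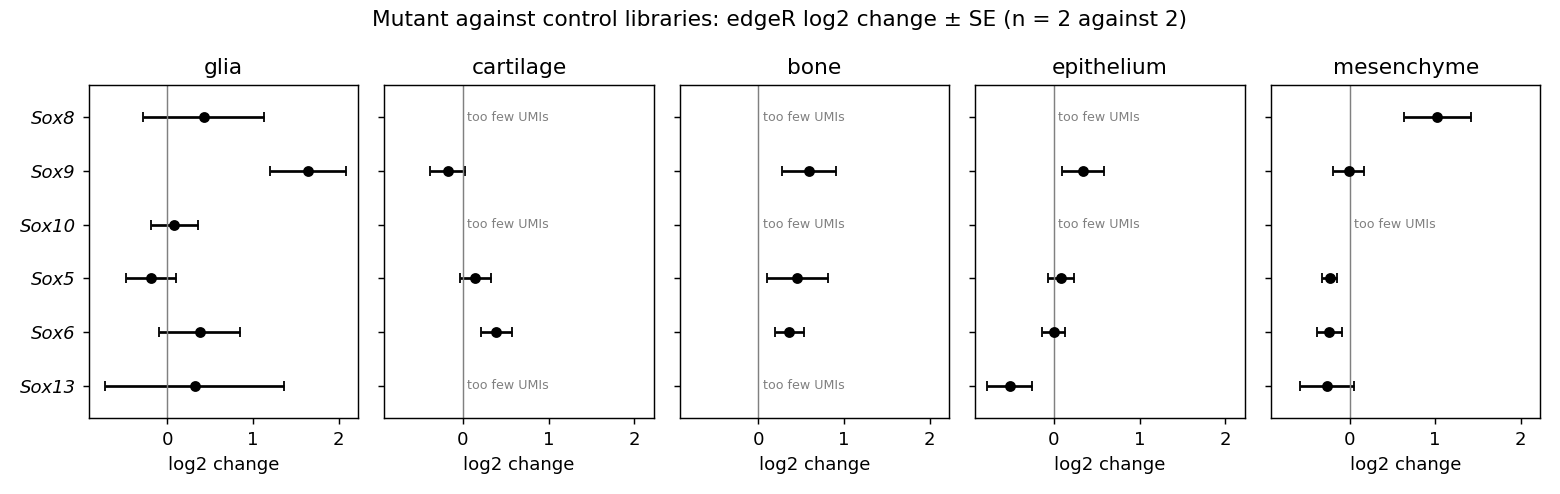
Change of mutant against control libraries for each gene and class, as the edgeR log2 change with its standard error (2 against 2 libraries; genes under the filter on low counts are marked as having too few UMIs). The estimate for Sox9 in glia, 1.64, is the largest drawn, and no gene passed the adjusted threshold.

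Among the 5 classes tested for genotype, the largest log2 change of the 6 genes was that of Sox9 in glia. Its level was 86.6 and 20.5 CPM in control 1 and control 2 and 191 and 193 CPM in mutant 1 and mutant 2, from 35, 5, 74 and 30 UMIs. Both mutants were above both controls, and the groups did not overlap for 35.2% of the genes tested in glia. This was a log2 change of 1.64 ± 0.45 (SE, n = 2 against 2; unadjusted p = 0.0045, edgeR adjusted p = 0.94). The difference between this change and that in mesenchyme was 1.60 ± 0.50 (edgeR adjusted p = 0.80). The size rested on control 2: without it the log2 change was 1.08 (edgeR adjusted p = 0.21), and without control 1 it was 3.13 (edgeR adjusted p = 5.0e-07, in a fit that called 133 genes). Without mutant 2 it was 1.65 (edgeR adjusted p = 0.015, in a fit that called 31 genes), and with at least 4 glial markers per cell it was 0.86 (adjusted p = 0.99). With all 4 libraries it passed without the filter on low counts (1.62, edgeR adjusted p = 0.0033) and with the replicate number as a block (1.67, edgeR adjusted p = 0.0023), although the numbers did not pair the libraries.

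Glial markers also differed between the libraries. Fabp7, a fatty acid binding protein of ensheathing and immature glia, was at 13135, 3627, 12917 and 5663 CPM in control 1, control 2, mutant 1 and mutant 2, and the summed level of the 8 glial markers was 14999, 5157, 15006 and 7764 CPM. The neuronal list summed to 188, 835, 348 and 432 CPM in the same glia, the cartilage list to 156, 36.8, 263 and 135 CPM and the mesenchymal list to 376, 127, 92.8 and 245 CPM. Control 2 and mutant 2 were both low in glial markers, control 2 lowest. Control 2 was also lowest in cartilage markers and highest in neuronal ones. The part of these differences in the Sox9 values was not tested.

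**Figure D4:**
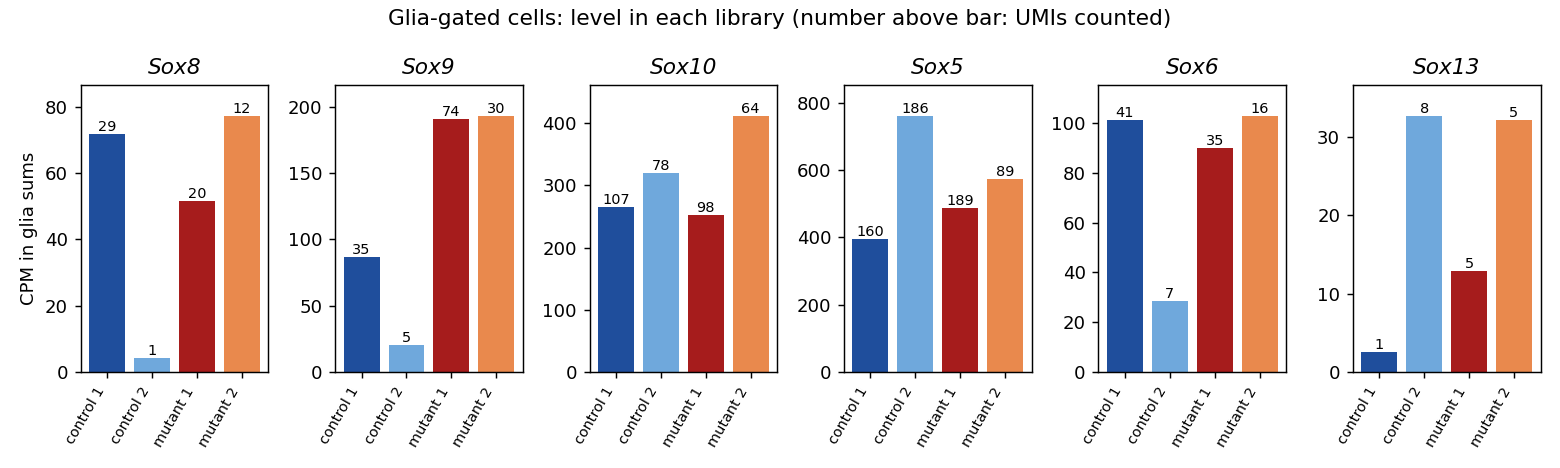
Level of the 6 genes in the glial class of each library, in CPM, with the number of UMIs above each bar. Sox9 is the gene whose mutant libraries both lie above both controls, and control 2 has 1 UMI of Sox8 and 5 of Sox9.

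The other 5 genes overlapped between the groups in glia. Sox10 had a log2 change of 0.08 ± 0.28 (edgeR adjusted p = 1.00), and Sox5 one of -0.19 ± 0.29 (edgeR adjusted p = 0.99). Sox13, with 1 to 8 UMIs a library, had 0.32 ± 1.04 (edgeR adjusted p = 1.00). Sox8 and Sox6 had changes of 0.43 ± 0.71 and 0.38 ± 0.47 (edgeR adjusted p = 0.99 and 0.98). Both depended on which control was kept: without control 1 the Sox8 change was 3.68 (edgeR adjusted p = 0.045) against 1 UMI in control 2, and the Sox6 change went from -0.16 without control 2 to 1.64 without control 1. Over all cells, Sox10 had 5.24 and 7.28 CPM in control libraries and 4.57 and 3.94 CPM in mutant libraries, without overlap, as for 37.9% of all genes tested there (log2 -0.59 ± 0.24, edgeR adjusted p = 0.91). The share of glia among kept cells was 1.01% and 1.09% for the controls and 1.10% and 0.48% for the mutants. Melanocytes held 6.5% and 13.2% of the Sox10 UMIs of the controls and 0% in both mutants. Cells that passed more than 1 list held 16.2% and 26.4% in the controls and 6.0% and 12.3% in the mutants. The part of these cells in the Sox10 difference over all cells was not tested.

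In cartilage Sox6 was higher in both mutants than in both controls, at the levels given above, with a log2 change of 0.39 ± 0.18 (edgeR adjusted p = 1.00). The groups did not overlap for Sox5 either, with a smaller change of 0.15 ± 0.18, and Sox9 overlapped, with a change of -0.18 ± 0.20. In cartilage the groups did not overlap for 33.8% of the genes tested. In bone all 3 genes tested had estimates above 0 and an edgeR adjusted p of 1.00. Sox9 (log2 0.59 ± 0.31) and Sox6 (0.36 ± 0.17) were higher in both mutants, while Sox5 (0.45 ± 0.36) overlapped. The groups did not overlap for 34.7% of the genes tested in bone. Without control 1 the Sox6 change in bone was 0.66 (edgeR adjusted p = 0.031, in a fit that called 168 genes). The Sox6 change exceeded that in mesenchyme by 0.63 ± 0.24 in cartilage and 0.62 ± 0.24 in bone, with unadjusted p of 0.018 and 0.019 and edgeR adjusted p of 1.00 for both. Tests of these differences from mesenchyme called 0 of 11062 genes in any class, with 341 to 598 at an unadjusted p under 0.05. DESeq2 called 1 gene in epithelium and 0 elsewhere.

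The targets of the trio were read for the same comparison. All 10 cartilage targets tested in cartilage had a log2 change above 0 and none passed, with a median of 0.43 against -0.00 over all genes. Col11a2 at 0.89 ± 0.40, Matn3 at 0.73 ± 0.39, Col9a3 at 0.66 ± 0.33 and Col9a2 at 0.58 ± 0.34 were the largest. The summed level of the 8 cartilage gate markers was 4316, 2389, 3094 and 6014 CPM in control 1, control 2, mutant 1 and mutant 2, and the groups overlapped. Col2a1 and Col9a3 were lowest in control 2 and highest in mutant 2, as this sum was.

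Control mesenchyme had 2.06 and 0.848 CPM of Sox8 and mutant mesenchyme 3.30 and 3.04 CPM, from 40, 11, 61 and 48 UMIs. Both mutants were above both controls, and the groups did not overlap for 40.8% of the genes tested in mesenchyme. The log2 change was 1.03 ± 0.39 (edgeR adjusted p = 0.59), and it went from 0.59 without control 2 to 1.86 without control 1 (edgeR adjusted p = 0.020, in a fit that called 892 genes). Sox5 was lower in both mutants, by a log2 change of -0.23 ± 0.09 (edgeR adjusted p = 0.59). Sox9, Sox6 and Sox13 overlapped, with changes of -0.01 ± 0.18, -0.24 ± 0.14 and -0.27 ± 0.31. In epithelium Sox13 was lower in both mutants (log2 -0.52 ± 0.26, edgeR adjusted p = 0.90), where the groups did not overlap for 38.8% of the genes tested. Sox9, Sox5 and Sox6 overlapped there, with changes of 0.34 ± 0.24, 0.08 ± 0.15 and -0.00 ± 0.14.

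Genes of most similar pattern were named by Pearson correlation of log2(CPM + 10) over 36 sums, 9 classes in each of 4 libraries, among 11740 genes. Sums of a library share its depth, and the values are a description. For Sox10 they were Igsf11, Gpr17 and Gm12688 (r = 0.97 each). For Sox8 they were Cmtm5, Cyp2j9 and Plekha4 (r = 0.89 to 0.90), and for Sox9 BC006965, Sema3e and 2610035D17Rik (r = 0.87 to 0.89). Sox5 was closest to Plce1, Ldlrad3 and Kcnq5 (r = 0.85 to 0.88). Sox6 was closest to Capn6, Msx2 and Rarg (r = 0.83 to 0.89), and Sox13 to Cd151, Col18a1 and Mmp15 (r = 0.78 to 0.86). Among the 6 genes themselves, Sox10 and Sox8 had r = 0.85, Sox5 and Sox9 had r = 0.78, Sox6 and Sox9 had r = 0.72, and Sox13 had r of -0.33 to 0.33 with each of the others.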

How the data were processed

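The authors deposited 1 matrix of UMI counts a library, not normalized, from Cell Ranger 8.0.1, per the file headers; the submitters' processing notes name Cell Ranger 4, Seurat 4.3.0 and build mm10. Whether reads in introns were counted is not given in the sources used here, which bears on Sox5 and Sox6, genes of 954 and 568 kb. The 6 genes, the marker lists and the target lists were chosen with earlier results of these data known.

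A barcode was kept with 500 genes or more and no more than 10% of its UMIs mitochondrial. The automatic threshold of Scrublet (scanpy 1.11.5) marked 0 to 2 cells a library and had not worked, so doublets were treated only by leaving out the 236 cells that passed several lists; removing the highest scores was an alternative. A further 276, 215, 189 and 383 cells of control 1, control 2, mutant 1 and mutant 2 passed no list.

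Counts were summed per library and class (at least 20 cells in each library) and tested with edgeR 4.0.16 in R 4.3.3: quasi-likelihood, TMM, filterByExpr, Benjamini-Hochberg over all genes, threshold 0.05. Standard errors are the log2 change over the square root of F. The fits were first run on simulated data as a check of the code, with loose limits. The limit on signs did not cover the genotype fit in glia, and the outcome is not given here. Alternatives were DESeq2 1.42.0, RLE size factors, no filter, gates at 2 or 4 markers, at least 1000 genes, Scrublet removal, a replicate block, thinning to 2000 UMIs or none, and each library left out. The rule for named genes took all 6 in every class, with list members that passed or had the 4 largest changes. A count of 0 is given the limit of 3 counts of the total, and intervals are exact at 95%. Positions are those of GENCODE M21 (GRCm38), matched for 32158 of 32285 identifiers.

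Replicate numbers did not pair the libraries: deviations of same-numbered libraries correlated at -0.09 to 0.12 over the classes, with 2 pairs. Which provider sequenced which library is not given in the sources used here, and a further sample that the protocols mention was not analysed here.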

Additional observations from a re-analysis of the deposited data

How the results depend on the processing

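Of the log2 values of the 6 genes under the other settings that kept all libraries, 364 kept direction and side of the threshold, 8 passed newly, 1 was lost and 14 changed sign. Mutant against control they were Sox6 in glia (-0.16), Sox5 in cartilage (-0.10), Sox5 in bone (-0.044) and Sox6 in epithelium (0.23) with the gate at 2 markers; Sox6 in epithelium without the filter (0.0085), with DESeq2 (0.0041) and with Scrublet removal (0.024); and Sox9 in mesenchyme with the gate at 4 markers (0.061). Against mesenchyme they were Sox9 in bone (0.045), Sox13 in cartilage (-0.28) and Sox6 in glia (0.38) with the gate at 2, and Sox5 in bone (-0.093) and Sox6 in epithelium (-0.076) with the gate at 4. The cause was not tested.

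Without the filter on low counts 1 of the 6 genes, Sox9, passed in glia (adjusted p = 0.0033) and in its difference from mesenchyme (count 1). In bone against mesenchyme 2 of the 6 passed without the filter, Sox6 and Sox9 (Sox9 log2 -0.62, edgeR adjusted p = 0.0010). With the gate at 2 they were Sox6 and Sox5 (Sox5 log2 0.73, edgeR adjusted p = 0.00025). That gate also called Sox6 higher in epithelium than in mesenchyme (log2 0.73, edgeR adjusted p = 1.1e-06). Leaving out the filter called 52 genes in glia, 35 in cartilage, 70 in bone, 322 in epithelium, 579 in mesenchyme and 10 in all cells. In the differences it called 40, 24, 26 and 58 for glia, cartilage, bone and epithelium. DESeq2 called 0 in bone, 6 in epithelium, 52 in mesenchyme, 30 in all cells and 1 in the difference for epithelium. The gate at 2 called 0 in bone and mesenchyme and 3 and 2 in the differences for epithelium and glia; the gate at 4 called 0, 0 and, for glia, 1; Scrublet removal called 0 in bone and left 19 glial cells in 1 library, so glia were not fitted.

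With the replicate number as a block, Sox9 in glia passed (log2 1.67, adjusted p = 0.0023; 1 of the 6 genes), 31 genes passed in glia, 20 in cartilage and 395 in mesenchyme, and Sox9 in mesenchyme was at 0.013. The numbers share only a number.

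Leaving out 1 library, where the lone library is assumed to vary like the others, moved the members called to 0 to 2 in glia, 0 to 1 in bone and in mesenchyme, and 2 to 4 in epithelium against mesenchyme. Genes called ran from 0 to 133 in glia, 1 to 44 in cartilage, 27 to 168 in bone, 0 to 507 in epithelium, 16 to 892 in mesenchyme and 0 to 410 in all cells, and in the differences from 0 to 3 in bone, 0 to 4 in cartilage, 0 to 79 in epithelium and 0 to 1 in glia. Genes called in cartilage against mesenchyme ran from 1393 to 2051. Signs changed, mutant against control, for Sox5 (-0.61 to 0.34), Sox6 (-0.16 to 1.64), Sox10 (-0.27 to 0.40) and Sox8 (-0.31 to 3.68) in glia, Sox9 in cartilage (-0.37 to 0.027) and mesenchyme (-0.26 to 0.32), Sox5 in bone (-0.44 to 0.99), Sox5 (-0.064 to 0.33), Sox6 (-0.13 to 0.11) and Sox9 (-0.10 to 0.67) in epithelium and Sox6 in all cells (-0.29 to 0.018), and for Sox5 (-0.12 to 0.41) and Sox10 (-0.32 to 0.99) in bone against mesenchyme.

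Mean shares moved with thinning to 2000 UMIs, no thinning, and gates at 2 and 4 markers. For cartilage they were 45.4%, 67.4%, 48.0% and 62.9% for Sox9 and 66.2%, 84.6%, 53.6% and 75.4% for Sox6, and 87.8% (no thinning) and 55.4% (gate at 2) for Sox5. For glia they were 43.3%, 88.5% and 45.8% for Sox10 and 53.3%, 89.8% and 50.3% for Sox5 (2000, none, gate at 2), and 45.9% for Sox9 without thinning. Sox6 in bone was 85.2% without thinning and 51.7% at the gate of 2. The trio was 28.0% at 2000 UMIs and 54.8% without thinning, Sox10 with Sox5 21.9% and 80.5%, and Sox10 with Sox9 39.3% without thinning.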

Other observations

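Other Sox genes differed between the classes too. Sox2, a factor of sensory and airway epithelium, was at 131, 88.1, 127 and 128 CPM in epithelium of control 1, control 2, mutant 1 and mutant 2 and at 1.70 to 7.09 CPM in mesenchyme, a log2 difference of 4.58 ± 0.19 (n = 4 libraries; edgeR adjusted p = 5.2e-16). Sox11, a gene of immature cells, was called lower than mesenchyme in cartilage (-0.83 ± 0.13), bone (-1.27 ± 0.12) and glia (-0.85 ± 0.15) and higher in epithelium (0.54 ± 0.10). Mbp, listed with the glial targets, was at 25.7 to 31.6 CPM in epithelium and at 6.44 to 47.0 CPM in glia.

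In neuronal cells Sox9 had 47.7 and 50.7 CPM in control libraries and 10.4 and 24.0 CPM in mutant libraries. These levels came from 32, 25, 6 and 9 UMIs, and the groups did not overlap. This class was not tested for genotype, and its share of genes without overlap was not computed. In the sums that were tested that share was 33.8% to 40.8%. In macrophages 37 of the 42 Sox6 UMIs came from control 1 (55.7 CPM against 0 to 5.08 in the other libraries).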
